A study of Bos taurus with 27 samples.

Results

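Transcripts of 42 genes of the basement membrane, its cell surface receptors and the enzymes that assemble or degrade it were examined in 27 pools of bovine blastocysts. The genes were chosen by name, as 7 laminin chains, 5 collagen chains, 5 linkers and proteoglycans, 4 adhesive or matricellular glycoproteins, 11 integrin chains, 6 genes of matrix proteolysis and 4 genes of collagen processing. All 42 were among the 32637 genes of the deposited count table, and all 42 were found by symbol in the RefSeq annotation of ARS-UCD2.0, the assembly to which the reads had been mapped.

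Oocytes from abattoir ovaries were matured in vitro with follicular fluid from preovulatory follicles of either greater or lesser maturity, fertilized with semen of 1 bull and cultured in the same medium until Day 8. Each pool combined the RNA of 2 expanding or expanded blastocysts with a stage code of 7 and a quality code of 1, so a value belongs to a pair of whole embryos in which trophectoderm and inner cell mass were not separated. The labels give each pool a number but neither its follicular fluid treatment nor its in vitro fertilization replicate, so both treatments are present among the 27 pools and were not compared here. The pools are the replicates of this report, and values are given as the lowest, the median and the highest pool. The blastocysts came from fewer in vitro fertilization replicates than there are pools, so some pools share a replicate, a treatment or both. All tests below treat the pools as independent, so their p-values may be too small. The part of shared replicate or treatment in the correlations was not tested.

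A basement membrane is a thin sheet of extracellular matrix on which epithelial cells rest. Laminin trimers, each of an alpha, a beta and a gamma chain, and type IV collagen trimers form separate networks that nidogens, perlecan and agrin link together, while integrins and dystroglycan hold the sheet to the cell surface. In the blastocyst the trophectoderm and the hypoblast (primitive endoderm) lay down such sheets, and matrix proteases cut them during later growth.

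Abundance was calculated as CPM, the count of a gene per 1000000 counts of the pool. The libraries copy mRNA from the 3′ end, and CPM was not divided by transcript length, so levels were compared between pools and not between genes. The total count was between 10517606 (pool 28) and 44253564 (pool 23), and 3 counts, the smallest number read here as a signal, were equal to between 0.0678 and 0.285 CPM. These limits cover counting error only. Pool 9 stood apart in its cell type markers. Its hypoblast marker mean, the mean log2(CPM + 1) of the retained markers, was 3.28 against a next lowest of 3.91 and a median of 4.80. Its summed CPM of all 9 listed leukocyte markers was the highest, at 105 against a lowest of 15.3 in pool 31.

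Most of these genes were detected in the blastocysts. At least 1 CPM in 12 pools, the minimum abundance used in the methods of the study, was reached by 30 of the 42 genes (71.4%), compared with 12310 of 32637 genes in the table (37.7%). Among the 24638 genes with any count the share was 50%. The 42 genes were chosen with earlier results of these data known, so their higher share is a description and not a result. Together the 42 genes held between 0.193% (pool 41) and 0.325% (pool 33) of the counts of a pool, with a median of 0.242%. The 12 genes that did not reach the minimum were the laminin chains LAMA3, LAMB2 and LAMB3, the collagen chain COL4A6, the proteoglycan HSPG2, the glycoprotein FBLN1, the integrin chains ITGB4, ITGB6 and ITGB8, and the proteases MMP2, MMP9 and MMP14.

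**Figure D1:**
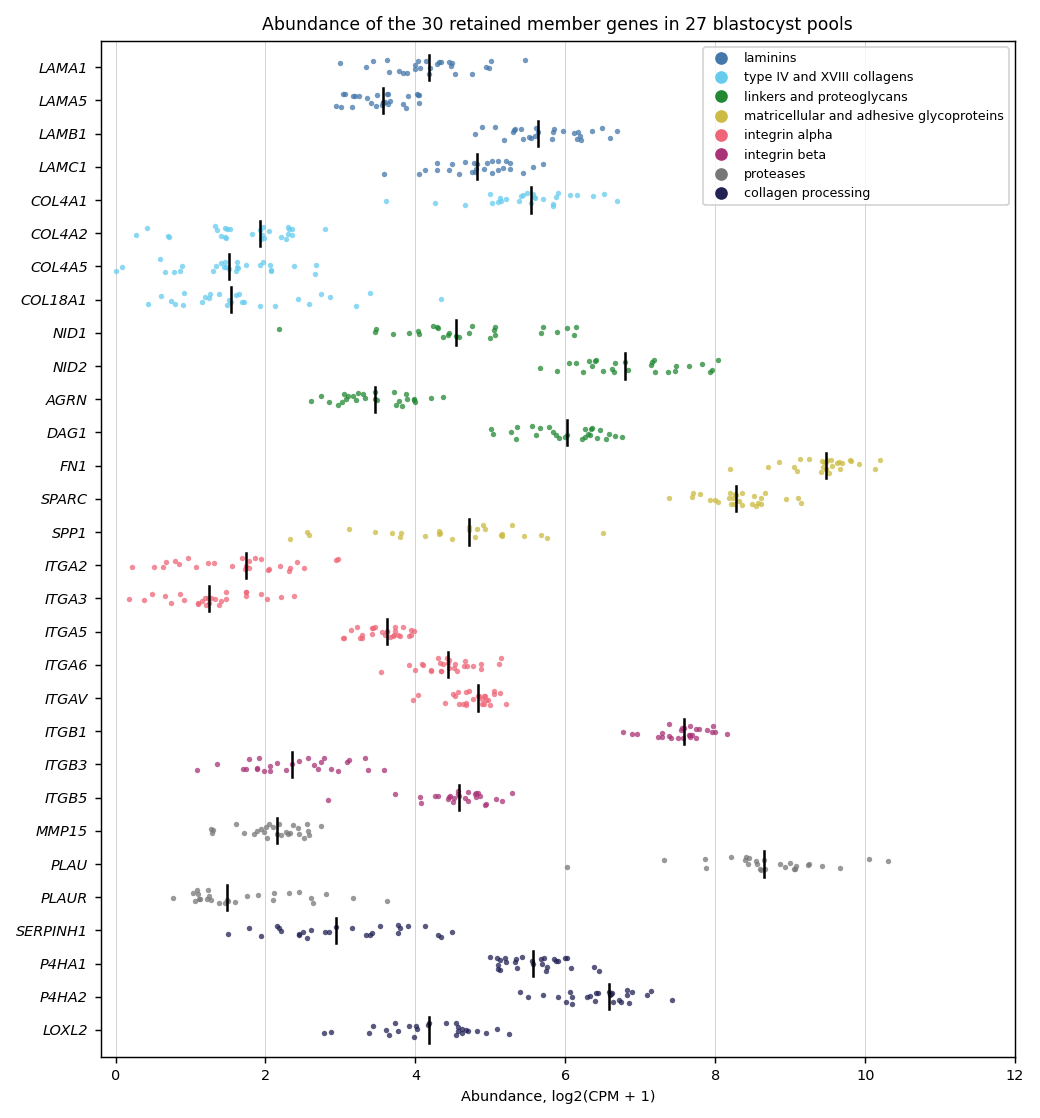
Abundance of the 30 retained genes, with log2(CPM + 1) on the horizontal axis and 1 row per gene, coloured by role. Each point is 1 of 27 pools and each black bar is the median, and integrin chains such as ITGAV (14.7 to 36.0 CPM) form narrow rows while SPP1 (4.02 to 89.9 CPM) and NID1 (3.53 to 69.6 CPM) form wide ones.

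Among the laminins, the chains of laminin-111 (LAMA1, LAMB1 and LAMC1) and the alpha chain LAMA5, the alpha chain of laminin-511, were present in all 27 pools. LAMA1 was between 6.98 CPM (pool 21) and 43.1 CPM (pool 28), with a median of 17.2 CPM. LAMB1, the beta chain shared by laminin-111 and laminin-511, was between 26.9 CPM (pool 15) and 102 CPM (pool 1), with a median of 48.5 CPM. LAMC1, the gamma chain of most laminins, was between 11.0 CPM (pool 9) and 51.0 CPM (pool 35), with a median of 27.3 CPM. The pools with extreme values therefore differed from chain to chain. LAMA5 was between 6.69 CPM (pool 21) and 15.5 CPM (pool 42), with a median of 10.8 CPM, the smallest ratio of highest to lowest pool among these chains at 2.32. The remaining chains were sparse. LAMA3 and LAMB3, chains of the laminin-332 of anchored epithelia, had medians of 0.163 and 0.0679 CPM, and both were highest in pool 21, at 3.22 and 1.68 CPM. LAMB2, the alternative beta chain, reached 1.41 CPM in pool 24 and had a median of 0.398 CPM.

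The collagen chains differed in how far they were measurable. COL4A1, a chain of the ubiquitous type IV collagen trimer, was between 11.2 CPM (pool 9) and 102 CPM (pool 38), with a median of 45.4 CPM. COL4A2, its partner in that trimer, was between 0.207 CPM (pool 9, 3 counts) and 5.93 CPM (pool 31), with a median of 2.82 CPM. Both partners were thus lowest in pool 9. COL18A1, the core protein of the basement membrane collagen that yields endostatin, was between 0.344 CPM (pool 9) and 19.4 CPM (pool 31), with a median of 1.90 CPM. Its ratio of highest to lowest pool, 56.3, was the widest among genes with more than 3 counts in every pool, and pool 31 was above the next pool, 36, at 9.53 CPM. COL4A5, a chain of a more restricted type IV trimer, had no count in pool 28, a median of 1.85 CPM and a highest value of 5.37 CPM (pool 15). COL4A6, its neighbour on the X chromosome, had no count in 13 pools and reached 1.20 CPM in pool 23.

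Linkers and dystroglycan were well measured apart from HSPG2. NID1, nidogen 1, which bridges the laminin and collagen networks, was between 3.53 CPM (pool 35) and 69.6 CPM (pool 31), with a median of 22.3 CPM. NID2, the second nidogen, was between 49.8 CPM (pool 31) and 262 CPM (pool 1), with a median of 110 CPM. The pool highest in NID1 was therefore the lowest in NID2. AGRN, agrin, a heparan sulfate proteoglycan that binds laminin and dystroglycan, was between 5.08 CPM (pool 13) and 19.6 CPM (pool 31), with a median of 10.0 CPM. DAG1, the precursor of both dystroglycan subunits, was between 31.2 CPM (pool 32) and 107 CPM (pool 31), with a median of 64.0 CPM. HSPG2, perlecan, had a median of 0.906 CPM and reached 3.06 CPM in pool 14.

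Of the glycoproteins, FN1, fibronectin, was between 294 CPM (pool 9) and 1171 CPM (pool 38), with a median of 712 CPM. SPARC, which binds collagen and helps its deposition, was between 166 CPM (pool 9) and 564 CPM (pool 32), with a median of 309 CPM. Both were lowest in pool 9. SPP1, osteopontin, a ligand of integrins that contain the alpha V chain, was between 4.02 CPM (pool 26) and 89.9 CPM (pool 32), with a median of 25.2 CPM. FBLN1, fibulin 1, had a median of 0.517 CPM and was highest in pool 45, at 4.75 CPM.

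Integrin chains pair as 1 alpha and 1 beta chain at the cell surface. All 5 alpha chains passed the minimum abundance. ITGA6, an alpha chain of laminin receptors, was between 10.7 CPM (pool 46) and 34.2 CPM (pool 45), with a median of 20.7 CPM. ITGAV, the alpha chain of receptors for fibronectin and osteopontin, was between 14.7 CPM (pool 5) and 36.0 CPM (pool 21), with a median of 27.5 CPM. ITGA5, the alpha chain of the main fibronectin receptor, was between 7.15 CPM (pool 12) and 14.8 CPM (pool 15), with a median of 11.3 CPM. These 3 genes varied little between pools. ITGA3, an alpha chain of laminin receptors, was between 0.129 CPM (pool 32, 2 counts, under the 3 read as a signal) and 4.22 CPM (pool 33), with a median of 1.38 CPM. ITGA2, an alpha chain of a collagen receptor, was between 0.163 CPM (pool 31) and 6.82 CPM (pool 9), with a median of 2.33 CPM.

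Only 3 of the 6 beta chains passed. ITGB1, the beta chain that pairs with each of ITGA2, ITGA3, ITGA5, ITGA6 and ITGAV, was between 109 CPM (pool 31) and 283 CPM (pool 9), with a median of 191 CPM. ITGB5, a partner of ITGAV, was between 6.13 CPM (pool 9) and 38.0 CPM (pool 25), with a median of 23.0 CPM. ITGB3, another partner of ITGAV, was between 1.12 CPM (pool 46) and 11.0 CPM (pool 23), with a median of 4.09 CPM. Pool 9 was thus highest for 1 beta chain and lowest for another. ITGB4, the partner of ITGA6 in hemidesmosomes, had 37 counts over all 27 pools and no count in 14 of them. ITGB6 reached 3.30 CPM in pool 5 and ITGB8 reached 1.87 CPM in pool 14, and the latter pool held 51.7% of the ITGB8 signal summed as CPM.

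In the proteolytic genes the urokinase system was present in every pool and the gelatinases were sparse. PLAU, urokinase, which activates plasminogen, was between 64.0 CPM (pool 32) and 1264 CPM (pool 9), with a median of 399 CPM. PLAUR, the urokinase receptor, was between 0.694 CPM (pool 21) and 11.3 CPM (pool 12), with a median of 1.80 CPM. MMP15, a membrane-type metalloproteinase, was between 1.43 CPM (pool 1) and 5.71 CPM (pool 46), with a median of 3.46 CPM. It was the only 1 of the 4 metalloproteinases listed that passed the minimum. MMP14, the membrane-type enzyme that activates MMP2, had no count in 17 pools and reached 1.05 CPM in pool 14. MMP2 had 52 counts in all, and pool 31 held 62.8% of its summed CPM. MMP9 had a median of 0.731 CPM and a highest value of 1.81 CPM in pool 23.

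Genes of collagen processing were present in all pools. SERPINH1, the collagen chaperone HSP47, was between 1.83 CPM (pool 1) and 21.5 CPM (pool 23), with a median of 6.67 CPM. P4HA1 and P4HA2, catalytic chains of prolyl 4-hydroxylase, had medians of 46.3 and 94.5 CPM. P4HA1 was between 30.9 CPM (pool 28) and 86.1 CPM (pool 38). P4HA2 was between 41.0 CPM (pool 32) and 170 CPM (pool 31). The enzymes of the same step were therefore at their extremes in different pools. LOXL2, a lysyl oxidase that crosslinks type IV collagen, was between 5.87 CPM (pool 12) and 36.9 CPM (pool 33), with a median of 17.2 CPM.

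The spread between pools differed from gene to gene. The interquartile range of log2(CPM + 1) over the 27 pools had a median of 0.70 over the 30 retained genes, compared with 0.52 over all 12310 retained genes, and it was above that value in 22 of the 30 and above the upper quartile of all genes in 13. By role, the median interquartile range was 0.84 in the 4 linkers, 0.83 in the 4 collagens, 0.78 in the 4 collagen processing genes, 0.65 in the 3 proteolytic genes, 0.61 in the 4 laminins, 0.45 in the 3 glycoproteins, 0.40 in the 5 integrin alpha chains and 0.37 in the 3 integrin beta chains. Among the integrin chains, ITGA2 (1.10) and ITGB3 (0.93) were as wide as many matrix genes. The narrowest ranges were 0.33 in both ITGAV and FN1, and the widest were 1.35 in SPP1, 1.32 in SERPINH1 and 1.11 in COL18A1. These are descriptions of 27 pools, and no test was made between the role groups. The range was not adjusted for level, and counting error is larger in genes with few counts. COL4A2, COL4A5 and COL18A1 had median counts of 47, 40 and 38, against 15589 for FN1 and 4064 for ITGB1. The order of the role groups is therefore not read as an order of biological variation.

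The members were next set against cell type markers, because whole blastocysts were sequenced. In such samples fewer cells of a type and less RNA per cell cannot be told apart. Of 7 trophectoderm markers all 7 passed the minimum abundance, with KRT8 between 10633 and 26270 CPM. Of 6 epiblast markers 4 passed (SOX2, NANOG, POU5F1 and PRDM14), FGF4 had a median of 0 CPM and TDGF1 was not analysed here. Of 7 hypoblast markers 4 passed, GATA6, PDGFRA and HNF4A among them, whereas GATA4 had a median of 0.896 CPM and both SOX17 and FOXA2 had medians of 0 CPM, so 3 of the 7 markers of that lineage were sparse. GATA6, PDGFRA and HNF4A were also only loosely related to each other, with Spearman rho between -0.02 and 0.34 over the 27 pools. Of 9 leukocyte markers 7 passed. The summed CPM of all 9 was between 15.3 (pool 31) and 105 (pool 9), and LAPTM5 had no count in 13 pools. Of 9 cumulus cell markers TNFAIP6, FSHR and CYP19A1 passed. The summed CPM of all 9 was between 5.31 and 34.4, and FOXL2 had no count in 26 pools.

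Each gene was correlated over the 27 pools with 5 measures, namely the means of the retained hypoblast, epiblast, trophectoderm and leukocyte markers and the total count. The test was a two-sided permutation test of Spearman's rho with 100000 permutations, and p-values were adjusted by the Benjamini-Hochberg method over all retained genes that were not markers of the list. The marker means were not independent measures. The hypoblast mean had a rho of 0.59 with the trophectoderm mean and of -0.50 with the leukocyte mean, and the trophectoderm and leukocyte means had a rho of -0.55.

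With the hypoblast marker mean, 2 of the 30 genes, FN1 and LAMA5, rose together at an adjusted p of 0.05 or less and none fell. Over all 12306 genes tested, 0.406% rose and 0.244% fell. An unadjusted p under 0.05 was reached by 9 of the 30 genes (30.0%), compared with 17.3% of all genes, and these 9 (LAMA5, COL4A1, COL4A2, COL18A1, NID1, AGRN, FN1, DAG1 and P4HA2) all had a positive rho. FN1, on chromosome 2 from 103361560 to 103430752, had a rho of 0.78 (permutation test, adjusted p = 0.0154, unadjusted p = 1e-05, the smallest the permutations can give), the third highest of all genes tested. Its Pearson r was 0.85 on the log2 scale (permutation p = 1e-05) and 0.77 without pools 9 and 35, the 2 pools farthest from the median of the marker mean. FN1 was lowest in the pool with the lowest marker mean, and without pool 25 its adjusted p became 0.0547. LAMA5, on chromosome 13 from 54887604 to 54939286, had a rho of 0.67 (permutation test, adjusted p = 0.0364), with a Pearson r of 0.46 (permutation p = 0.0128) that was 0.63 without pools 9 and 35. The call for LAMA5 was retained in only 6 of the 27 repeats that each left out 1 pool, with an adjusted p of up to 0.0978. COL4A1 had a rho of 0.52 (permutation test, adjusted p = 0.136) but a Pearson r of 0.77 (adjusted p = 0.0205), which fell to 0.57 without pools 9 and 35. Without pool 9 alone its rho was 0.46. In edgeR's quasi-likelihood test of the slope on the marker mean 4 genes passed, all as higher. These were FN1, COL4A1 (edgeR, adjusted p = 0.00204), COL4A2 and COL18A1, and LAMA5 did not pass (edgeR, adjusted p = 0.198). Over all 12306 genes edgeR called 152 as higher and 79 as lower. With TMM library sizes, which correct totals for a few abundant genes, the permutation test called 7 genes, FN1 and LAMA5 with COL4A2, COL18A1, NID1, AGRN and DAG1. The share of all genes called with these library sizes is not given here, so the larger count is not read as a result about these genes.

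With the trophectoderm marker mean, 5 of the 30 genes passed. AGRN, P4HA2, DAG1 and COL4A2 were higher in pools with a higher marker mean, against 2.95% of all 12303 genes tested, and ITGA2 was lower, against 3.47%. An unadjusted p under 0.05 was reached by 13 of the 30 genes (43.3%), compared with 23.0% of all genes. AGRN, on chromosome 16 from 51422630 to 51461881, had a rho of 0.78 (permutation test, adjusted p = 0.00524), a Pearson r of 0.75 (permutation p = 2e-05) and an r of 0.74 without pools 32 and 9, the 2 farthest from the median. P4HA2, on chromosome 7 from 22147086 to 22218087, had a rho of 0.76 (permutation test, adjusted p = 0.00524), a Pearson r of 0.75 (permutation p = 1e-05) and an r of 0.67 without those pools. These 2 genes passed in all 27 repeats that left out 1 pool. DAG1, on chromosome 22 from 50614127 to 50662793, had a rho of 0.63 (permutation test, adjusted p = 0.0202), a Pearson r of 0.71 (permutation p = 5e-05) and an r of 0.60 without pools 32 and 9. Its call was lost only without pool 31, in which DAG1 was highest, at an adjusted p of 0.0528. COL4A2 had a rho of 0.60 (permutation test, adjusted p = 0.0294), with a Pearson r of 0.63 (permutation p = 0.00056) that was 0.59 without pools 32 and 9, and passed in 21 of the 27 repeats. ITGA2, on chromosome 20 from 25972489 to 26081221, had a rho of -0.58 (permutation test, adjusted p = 0.0369), with a Pearson r of -0.55 (permutation p = 0.00302) that became -0.42 without pools 32 and 9. ITGA2 passed in 21 of the 27 repeats and missed without pools 9, 22, 26, 28, 31 or 32, with an adjusted p of up to 0.0831. The markers of this list differed. With TFAP2C alone the rho was -0.28 for AGRN, -0.32 for DAG1, -0.21 for P4HA2 and -0.02 for COL4A2. With each other marker of the list the rho of these genes was positive. These single-marker values were not tested.

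**Figure D2:**
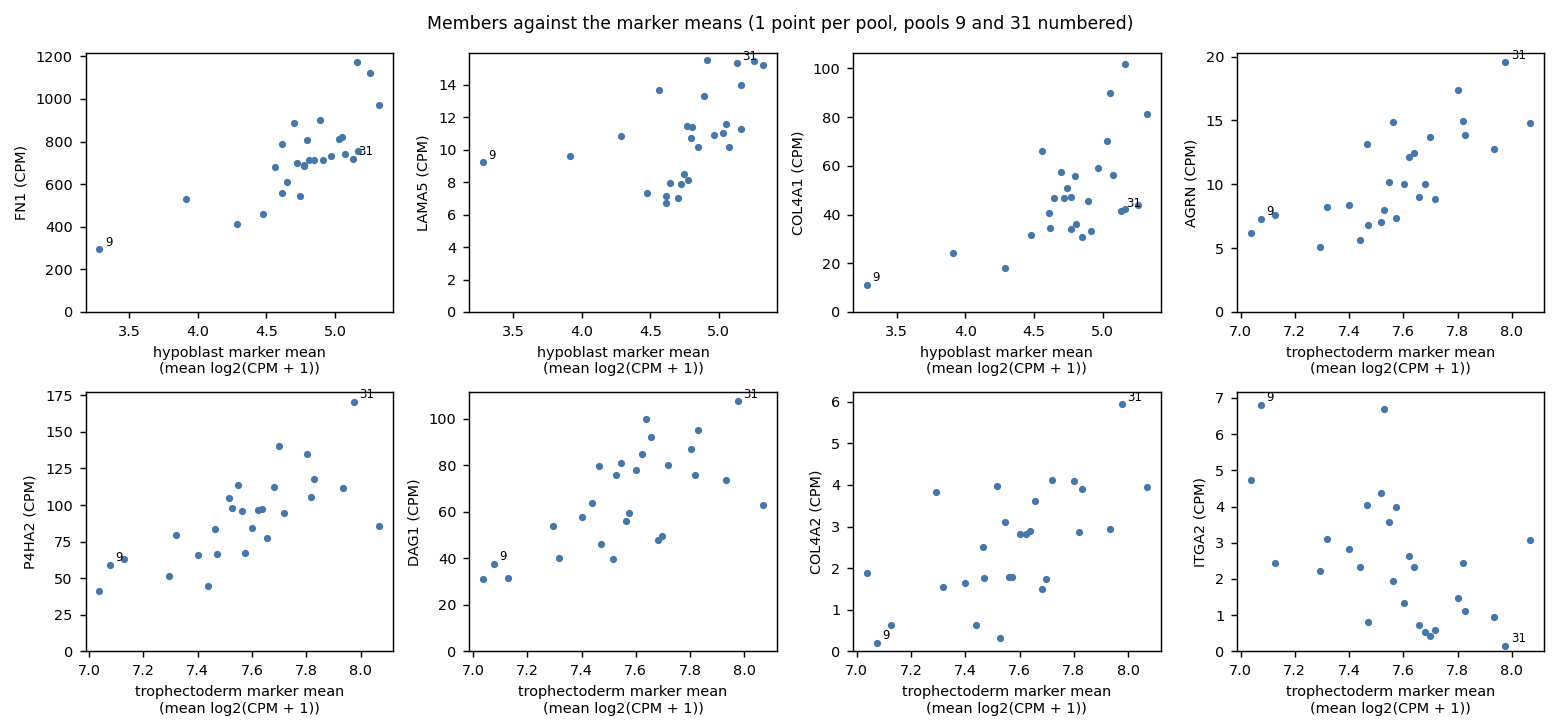
CPM of 8 genes on the vertical axes against a marker mean (mean log2(CPM + 1) of the retained markers) on the horizontal axes, with 1 point per pool and pools 9 and 31 numbered. FN1 rises from 294 CPM in pool 9, the pool with the lowest hypoblast marker mean, and ITGA2 falls from 6.82 CPM in pool 9 to 0.163 CPM in pool 31 along the trophectoderm marker mean.

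None of the 30 genes passed with the epiblast marker mean, the leukocyte marker mean or the total count, in the permutation test or in edgeR. With the epiblast mean 5 of the 30 (16.7%) had an unadjusted p under 0.05, compared with 8.02% of all genes (edgeR, 4 of the 30 and 1130 of 12306). At the adjusted threshold 0% of all genes rose or fell with it. With the leukocyte mean 6 of the 30 (20%) had an unadjusted p under 0.05, compared with 10.6% of all genes (edgeR, 9 of the 30 and 1878 of 12303). At the adjusted threshold 0.821% of all genes rose and 0.0325% fell. For the total count the unadjusted shares were 6.67% of the 30 and 3.38% of all genes. With the total count, LAMA1 (rho -0.43) and LOXL2 (rho -0.49) had an unadjusted p under 0.05 (0.0258 and 0.0107, permutation test, adjusted p = 1.00 for both), and 0% of all genes rose or fell with it. The 6 genes with the leukocyte mean (LAMA5, COL4A2, AGRN, FN1, DAG1 and MMP15) all had a negative rho, from -0.39 to -0.47, and all but MMP15 were among the 9 genes with a positive rho with the hypoblast mean. The part of the leukocyte markers in the relations with the other means was not tested.

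**Figure D3:**
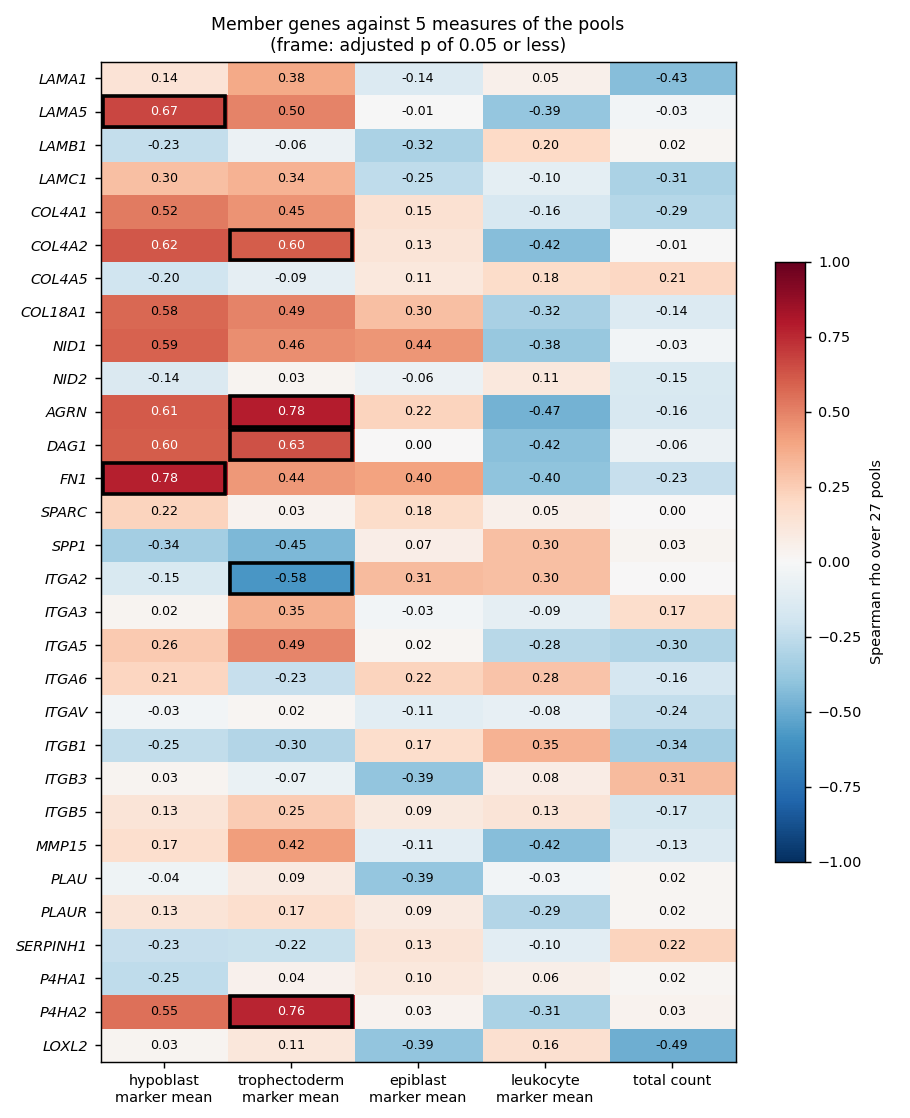
Spearman rho over 27 pools of each of the 30 retained genes (rows, by role) with each of 5 measures of the pools (columns), with the value in each cell, red for positive and blue for negative. A frame marks an adjusted p of 0.05 or less, which 2 genes reached with the hypoblast marker mean and 5 with the trophectoderm marker mean.

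Because these 3 hypoblast markers were loosely related, each was also used alone, a choice made after their values were seen. HNF4A, a transcription factor of endoderm and epithelia, gave the largest number of calls. With HNF4A, 6 of the 30 genes rose (AGRN, NID1, DAG1, COL18A1, LAMA5 and P4HA2), against 1.59% of 12309 genes, and SPP1 fell, against 2.78%. With GATA6, an early transcription factor of the hypoblast, LAMB1 and COL4A1 rose, against 0.788% of genes, and none fell, against 0.0162%. The markers differed on the same genes. LAMB1 had a rho of -0.49 with HNF4A and -0.25 with PDGFRA, and COL4A1 had 0.23 and 0.42. The 6 genes that rose with HNF4A had a rho with GATA6 of 0.03 (AGRN), -0.08 (NID1), 0.24 (DAG1), 0.06 (COL18A1), 0.37 (LAMA5) and -0.06 (P4HA2). None of these 6 passed with GATA6. No gene of the 30 passed with PDGFRA, with which 0% of all genes rose. At an unadjusted p under 0.05, 2 of the 30 rose and 1 fell with PDGFRA in the permutation test, and by Pearson's r none of the 30 passed with it. The share of all genes at that unadjusted p is not given here, so these counts are not read as a result.

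HNF4A was between 2.58 CPM (pool 35) and 69.2 CPM (pool 31), with a median of 20.1 CPM. AGRN followed it with a rho of 0.87 (permutation test, adjusted p = 0.00362), the second highest of the 12309 genes, and with a Pearson r of 0.78 (permutation p = 1e-05) that was 0.74 without pools 31 and 45. NID1, on chromosome 28 from 8687270 to 8784202, had a rho of 0.82 with HNF4A (permutation test, adjusted p = 0.00362), the sixth highest, with a Pearson r of 0.81 (permutation p = 1e-05) that was 0.77 without pools 31 and 45. AGRN and NID1 are both linkers of the matrix, but another linker, NID2, had a rho of -0.35 with HNF4A (permutation test, adjusted p = 0.274). DAG1 (rho 0.71, permutation test, adjusted p = 0.0113) and COL18A1 (rho 0.68, permutation test, adjusted p = 0.0153) passed as well, and these 4 genes passed in all 27 repeats that left out 1 pool. Pearson's r with HNF4A was 0.59 for DAG1 and 0.69 for COL18A1 (permutation p = 0.00092 and 0.00015), and 0.53 and 0.60 without pools 31 and 45. LAMA5 (rho 0.65, permutation test, adjusted p = 0.0175) missed without pool 31, at an adjusted p of 0.0534. P4HA2 (rho 0.62, permutation test, adjusted p = 0.0274) missed without pools 12, 31, 32 or 35, at up to 0.0805. Pearson's r was 0.56 for LAMA5 and 0.67 for P4HA2 (permutation p = 0.0015 and 0.00014), and 0.45 and 0.65 without pools 31 and 45. SPP1 went the other way, with a rho of -0.62 (permutation test, adjusted p = 0.0286), and missed without pools 31, 36 or 45, at up to 0.0601, with a Pearson r of -0.52 (permutation p = 0.00531) that was -0.44 without pools 31 and 45. All 7 relations also passed with CPM from TMM library sizes, and by Pearson's r LAMA5 and SPP1 missed, at adjusted p of 0.0508 and 0.0844. Pearson's r also called COL4A2 (r 0.68, permutation test, adjusted p = 0.0160) and FN1 (r 0.62, permutation test, adjusted p = 0.0392). Without pools 31 and 45 their r was 0.66 and 0.62. By Spearman's rho both missed (permutation test, adjusted p = 0.0805 and 0.0743). The share of all genes called by Pearson's r is not given here.

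The relations with GATA6 were less steady. GATA6 was between 19.5 CPM (pool 9) and 301 CPM (pool 25), with a median of 211 CPM and a next lowest value of 98.6 CPM in pool 31. LAMB1 had a rho of 0.67 with GATA6 (permutation test, adjusted p = 0.0346) and COL4A1 a rho of 0.65 (permutation test, adjusted p = 0.0471). The Pearson r was 0.43 for LAMB1 (permutation p = 0.0151) and 0.71 for COL4A1 (permutation p = 1e-04), and without pools 9 and 31 it was 0.68 and 0.66. By Pearson's r LAMB1 missed (adjusted p = 0.155) and COL4A1 passed (adjusted p = 0.0121), as did LAMC1 (r 0.61, adjusted p = 0.0336) and ITGB5 (r 0.81, adjusted p = 0.0113), whose r was 0.34 without pools 9 and 31. With TMM library sizes neither passed, at adjusted p of 0.203 and 0.125. LAMB1 passed in 17 and COL4A1 in 11 of the 27 repeats that left out 1 pool.

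Partner genes, whose proteins assemble with each other or act on each other, were then compared in 18 pairs that had both genes retained, out of 24 pairs listed. None of the 18 passed an adjusted p of 0.05 by the permutation test of Spearman's rho, and 3 had an unadjusted p under 0.05. The Pearson correlation called 1 pair, COL4A1 with COL4A2. The rho was positive in 11 of the 18 pairs, with a median of 0.07. The 6 pairs that could not be tested were COL4A5 with COL4A6, LAMB3 with LAMA3, ITGA6 with ITGB4, ITGAV with ITGB6 and with ITGB8, and MMP14 with MMP2.

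COL4A1 (chromosome 12, 84863917 to 84995777) and COL4A2 (84996172 to 85157766) lie side by side with 394 bases between them, an arrangement known in mammals to share a bidirectional promoter. Over the 27 pools they had a rho of 0.57 (permutation test, p = 0.00282, adjusted p = 0.174). Pearson's r on the log2 scale was 0.62 (permutation p = 0.00064), with an adjusted p of 0.0435, and stayed at 0.62 without pools 38 and 14. COL4A2 was 157th of 12309 genes in its rho with COL4A1, and 0.0244% of genes passed. Left out in turn, the pools gave a rho between 0.51 (without pool 9) and 0.62 (without pool 31). COL4A5 and COL4A6 (chromosome X) lie 1359 bases apart in the same manner, but COL4A6 was too sparse to test.

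LAMB1 and LAMC1, chains of the same laminin trimers, had a rho of 0.57 (permutation test, p = 0.00233, adjusted p = 0.0654). Their Pearson r was 0.55 (permutation p = 0.00301) and 0.49 without pools 1 and 33. LAMC1 was 373rd of 12309 genes in its rho with LAMB1, and 2.28% of genes passed with LAMB1. The alpha chains followed LAMB1 less closely, with a rho of 0.22 for LAMA1 (permutation test, adjusted p = 0.579) and of -0.07 for LAMA5 (permutation test, adjusted p = 0.886). The nidogens did not pass, with a rho of -0.42 (permutation test, p = 0.0298, adjusted p = 0.229). Their Pearson r was -0.40 (permutation p = 0.0379) and -0.29 without pools 31 and 24. With NID1, 0.122% of genes passed as higher.

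None of the tested pairs of integrin chains passed. ITGA6 and ITGB1 had a rho of 0.04 (permutation test, adjusted p = 1.00). The rho of ITGB1 with ITGA2, ITGA3, ITGA5 and ITGAV was between -0.17 and 0.27, and that of ITGAV with ITGB3 and ITGB5 was -0.18 and -0.23, with adjusted p of at least 0.675 in the permutation tests. ITGAV did not pass with its ligands FN1 (rho 0.09) and SPP1 (rho 0.02) either, each with an adjusted p of 1.00 in the permutation test. With ITGA6, ITGB1 or ITGAV as the reference gene, 0% of all genes passed as higher, so a miss says little about these pairs. PLAUR and PLAU, receptor and ligand, had a rho of 0.36 (permutation test, p = 0.0686, adjusted p = 0.725), and 0% of genes passed with PLAUR. COL4A1 and the collagen processing genes had a rho of -0.02 for SERPINH1, 0.17 for P4HA1 and 0.19 for P4HA2, with adjusted p of at least 0.731 in the permutation tests.

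**Figure D4:**
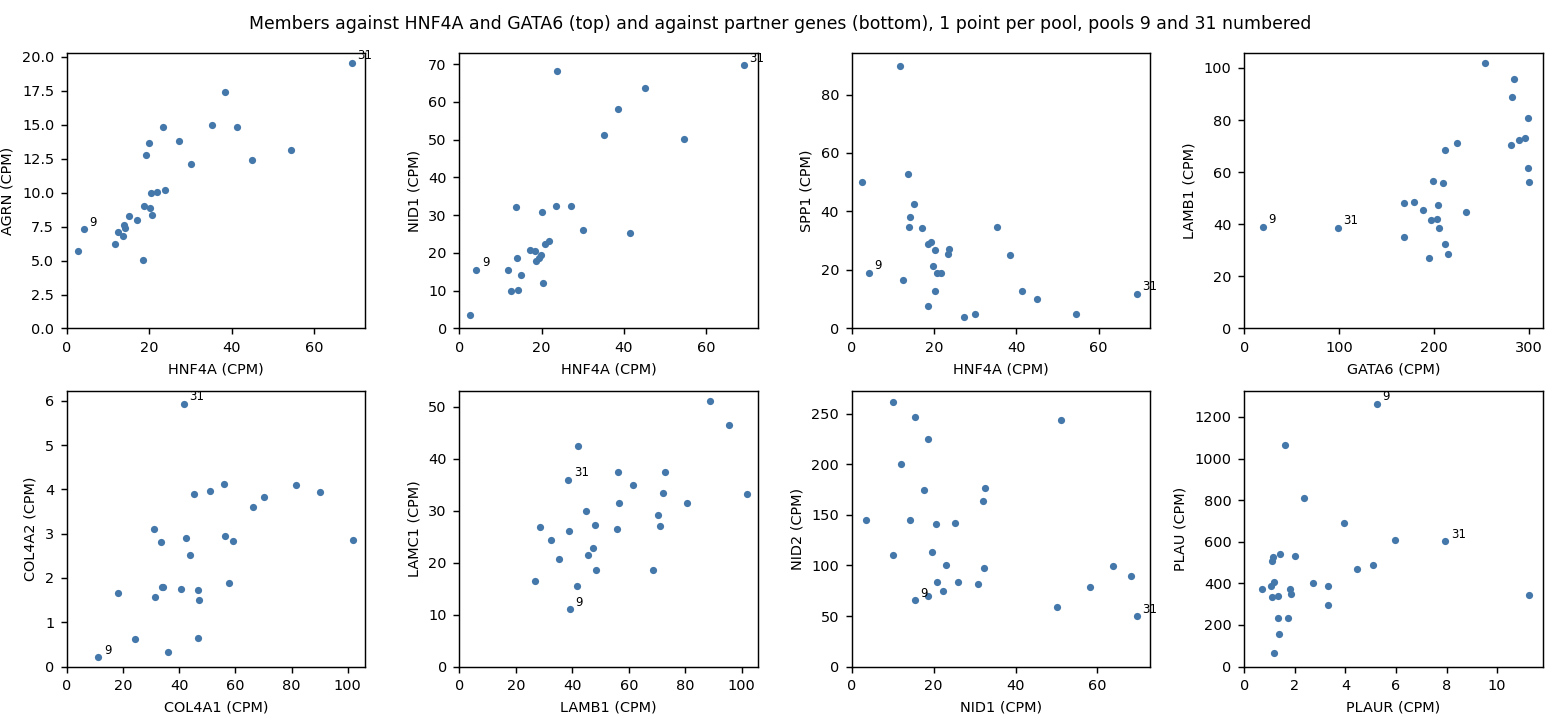
CPM of 1 gene against another in 27 pools, with pools 9 and 31 numbered; the top row sets AGRN, NID1 and SPP1 against HNF4A and LAMB1 against GATA6, and the bottom row shows 4 partner pairs. AGRN and NID1 rise with HNF4A (rho 0.87 and 0.82), SPP1 falls (rho -0.62), and NID1 is highest in pool 31, where NID2 is lowest.

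Over all 435 pairs of the 30 retained genes the median rho was 0.05, beside a median of 0.03 over all pairs of the 12310 retained genes. Within the laminins the median rho was 0.33 over 6 pairs, within the proteolytic genes 0.34 over 3 pairs and within the linkers 0.20 over 6 pairs. It was 0.10 within the glycoproteins (3 pairs), 0.09 within the collagens (6 pairs), 0.04 within the integrin beta chains (3 pairs), -0.07 within collagen processing (6 pairs) and -0.10 within the integrin alpha chains (10 pairs). The pairs with the highest rho were LAMA5 with DAG1 (0.78), AGRN with P4HA2 (0.76), COL18A1 with DAG1 (0.70), NID1 with AGRN (0.70), COL4A1 with FN1 (0.64) and LAMC1 with LOXL2 (0.64). LAMA5 and DAG1 encode a ligand and its receptor, and LOXL2 encodes a crosslinker. The pairs with the lowest rho were LAMB1 with NID1 (-0.61), SPP1 with DAG1 (-0.57) and SPP1 with LAMA5 (-0.57). These pairs were picked as the extremes of 435, so they are given without a test.

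**Figure D5:**
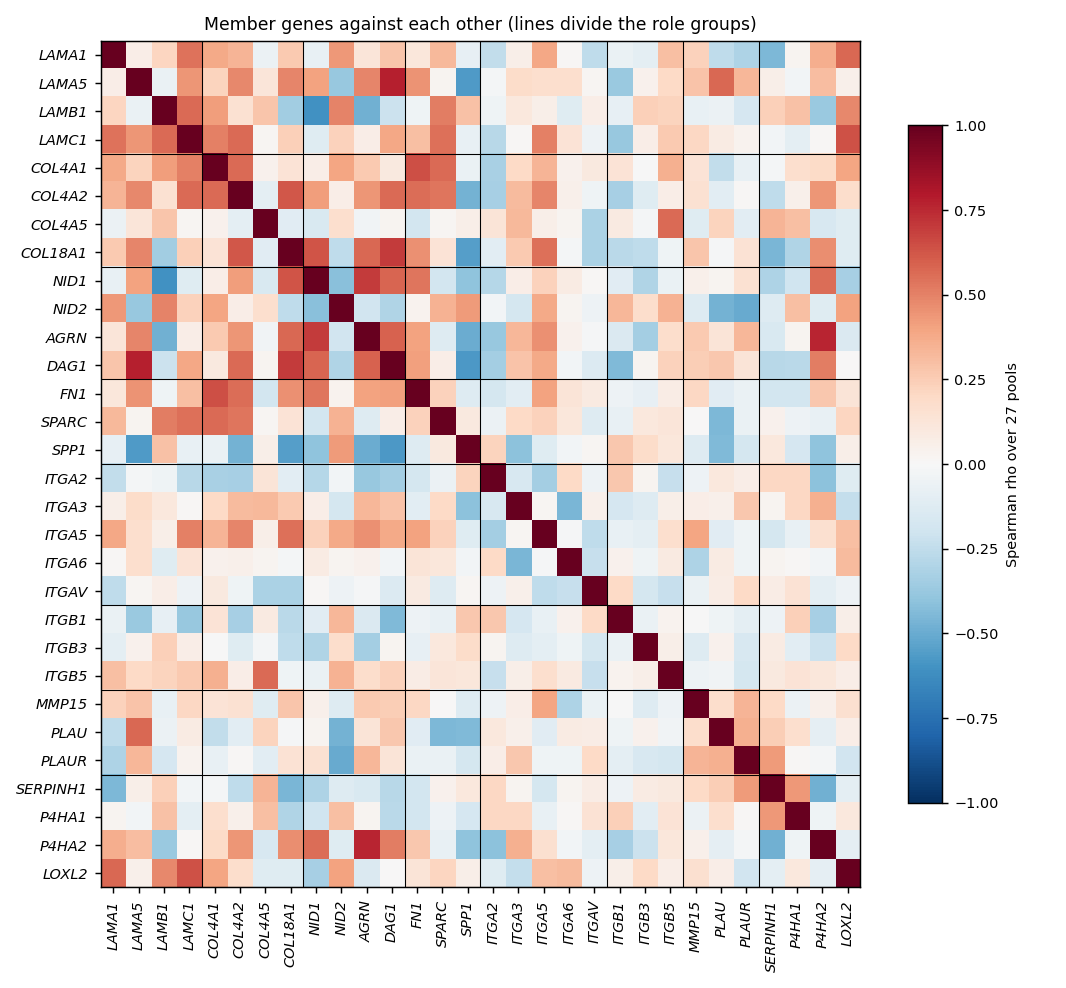
Spearman rho over 27 pools between the 30 retained genes, ordered by role on both axes with lines between role groups, red for positive and blue for negative. The red block joins COL18A1, NID1, AGRN and DAG1 with LAMA5 and P4HA2, the SPP1 row is mostly blue against these genes (rho -0.57 with DAG1), and ITGB5 with COL4A5 (rho 0.57) is the strongest red of the integrin rows outside the diagonal.

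Pools were therefore not uniformly high or low in these genes. Pool 31 had the highest value of 6 of the 30 retained genes (COL4A2, COL18A1, NID1, AGRN, DAG1 and P4HA2) and the lowest of 3 (NID2, ITGA2 and ITGB1). Pool 9 had the lowest value of 7 (LAMC1, COL4A1, COL4A2, COL18A1, FN1, SPARC and ITGB5) and the highest of 3 (ITGA2, ITGB1 and PLAU). For ITGA2, ITGB1, COL4A2 and COL18A1 these 2 pools were at opposite ends of the range.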

How the data were processed

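RNA from 27 pools of 2 blastocysts was reverse transcribed and amplified with a 3′ end kit, and the authors used fastp for trimming, STAR for alignment to ARS-UCD2.0 and featureCounts for assigning forward reads to genes. The deposited values are raw counts of reads, not molecules, for 32637 genes, without a filter on abundance, and tool versions and the annotation release are not given in the sources used here. The pool number links each of the 27 columns to its sample. The labels assign neither treatment nor replicate, so follicle maturity was not compared and relations were not recomputed within replicates.

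CPM was calculated from total counts (10517606 to 44253564 per pool), and a gene was kept if 12 pools reached 1 CPM. Correlations were tested as described above with 100000 permutations after tests on simulated data, log2 values used a pseudocount of 1 CPM, and markers of a list were left out of its family of tests. The 42 genes, the lists, the role groups and the 24 pairs were chosen with earlier results of these data known. Values by pool were given for set members of each role group, for every gene called with a marker mean and for the gene with the widest ratio in each group, and those of the remaining retained genes were added. Genes named for HNF4A or GATA6 and for the most extreme pairs were picked with the values in view.

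Results for some genes of these lists are not reported here. Alternatives covered the abundance minimum, TMM and DESeq2 size factors, the pseudocount, the correlation, the genes tested, the form of the marker measure and edgeR's quasi-likelihood slope on the measure. Positions came from RefSeq, matched by symbol. Python 3.11.15 (numpy 2.4.6, pandas 2.3.3, matplotlib 3.10.9) and R 4.3.3 (edgeR 4.0.16, DESeq2 1.42.0) were used.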

Additional observations from a re-analysis of the deposited data

How the results depend on the processing

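No paired analysis was possible because the treatment and replicate of the pools were not assigned. Of the 30 genes, 2 were called with the hypoblast marker mean, 7 with TMM library sizes, 4 in edgeR, 1 (FN1) with every counted gene tested and 1 (COL4A1) with the markers summed as CPM. With single markers, chosen after seeing the data, 0 were called with PDGFRA, 2 with GATA6 and 7 with HNF4A. With the trophectoderm marker mean 5 were called, 3 with every counted gene tested, 2 with summed CPM and 4 without KRT8 and KRT18, the last chosen after seeing the data. With the epiblast markers summed, 1 gene (PLAU) was called in place of 0. Among partner pairs, Pearson's r called 1 in place of 0. Leaving out each pool, also chosen after seeing the data, gave between 0 (without pool 25) and 6 (without pool 13) calls with the hypoblast mean, between 2 (without pool 31) and 6 (without pool 19) with the trophectoderm mean, and 0 with the other measures. Apart from edgeR and the single markers, counts under the alternatives are given without the share of all genes called. The causes were not tested. The relations called with the hypoblast and trophectoderm means kept their sign in the 6 alternatives counted below and without any 1 pool. Between single markers signs did differ. LAMA5 had a rho of -0.03 with PDGFRA, LAMB1 had 0.67 with GATA6 and -0.49 with HNF4A, and AGRN had -0.28 with TFAP2C.

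Across 6 alternatives each, AGRN and P4HA2 passed with the trophectoderm mean in all 6, DAG1 in 5, COL4A2 in 4 and ITGA2 in 2, and with the hypoblast mean FN1 passed in 5 and LAMA5 in 2. The number of genes retained was between 24 (1 CPM in all 27 pools) and 42 (any count), and their median interquartile range was between 0.68 and 0.73. TMM moved the median of all genes by over 0.1 on the log2 scale in pools 15 (0.15), 31 (0.13) and 35 (-0.10). An order of levels among genes was not run because transcript lengths were not used here. At 10517606 counts, the lowest depth, a gene at 1 CPM rested on 10.5 counts.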

Other observations

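A further 42 genes of the same biology (other laminin, collagen and integrin chains, metalloproteinases, plasminogen activation, collagen hydroxylation and crosslinking, and focal adhesion) were examined as a list. All 42 were in the table and 19 were retained. With the trophectoderm marker mean, P4HB (rho 0.62, permutation test, adjusted p = 0.0237), the common beta chain of prolyl 4-hydroxylase and protein disulfide isomerase, and MMP11 (rho 0.56, permutation test, adjusted p = 0.0466) rose, which were 2 of the 19, and none fell. In that test 2.95% of all genes rose and 3.47% fell. With the hypoblast, epiblast and leukocyte means and the total count 0 of the 19 passed in the permutation test, and edgeR also called 0. An unadjusted p under 0.05 was reached by 3, 1, 3 and 0 of the 19 (15.8%, 5.26%, 15.8% and 0%). The shares of all genes were 17.3%, 8.02%, 10.6% and 3.38%. With the trophectoderm mean edgeR called 3 of the 19 as higher, P4HB and the focal adhesion genes FERMT2 and TLN1, and did not call MMP11. Over all 12303 genes it called 541 as higher and 363 as lower. P4HB was between 250 CPM (pool 12) and 630 CPM (pool 31), and P4HA2 was highest in the same pool.

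Genes that connect integrins to the cytoskeleton differed in spread. FERMT2, kindlin 2, had a median of 251 CPM and a range from 147 to 400 CPM, and VCL, vinculin, had a median of 104 CPM and a range from 69.5 to 171 CPM. Their interquartile ranges of log2(CPM + 1) were 0.36 and 0.27, against 0.71 in FERMT1, kindlin 1, and 0.58 in TLN1, talin 1. SERPINE2, protease nexin 1, an inhibitor of urokinase, was between 94.0 CPM (pool 9) and 248 CPM (pool 24), and pool 9, where it was lowest, was the pool highest in PLAU. LAMC3, a sparse laminin gamma chain, had 6 counts in 1 pool.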
